A study of Mus musculus with 4 samples.

Results

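The oligoadenylate synthetase genes were described in differentiated neurosphere cultures from APPswe/PS1dE9 embryos and from wild-type (WT) embryos. The 8 genes considered were Oas1a, Oas1b, Oas1c, Oas1g, Oas2, Oas3, Oasl1 and Oasl2. Their probes were all non-control array probes that carry a RefSeq accession of one of them, and these were 9 of 55681 probes, for 7 of the 8 genes and of 20887 genes named on the array. No probe carried the accession that the RefSeq table used here gives for Oas1b. Probes under an accession that this table does not name may be of Oas1b and were not used. The genes were picked with the APPswe/PS1dE9 to WT ratios of these arrays known, so those ratios are given below as a description, without p-values, and counts of the genes past a threshold support nothing.

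RNA came from precursor cells of the telencephalon of C57BL/6 embryos at day 13, carrying the APPswe/PS1dE9 transgenes or WT, that grew for 5 days as neurospheres with EGF and FGF2 and for 7 days on poly-L-lysine and laminin without these factors. Each of 4 arrays paired 1 APPswe/PS1dE9 culture with 1 WT culture. On replicates 1 and 2 the APPswe/PS1dE9 RNA carried Cy3, and on replicates 3 and 4 it carried Cy5. The labels name neither the promoter of the transgenes nor the animals or litters behind the replicates, so the spread between arrays may be technical. As background, APPswe/PS1dE9 mice express an amyloid precursor protein with the Swedish mutations and a presenilin 1 lacking an exon. Amyloid deposits form in their brains with age.

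Oligoadenylate synthetases are sensors of double-stranded RNA. Bound to it, the active members join ATP into short 2'-5'-linked chains of adenylate that serve as a second messenger of antiviral defence. The genes are classic targets of type I interferon, whose signalling complex binds the interferon-stimulated response element in their promoters. In the brain they are known from viral infection and from the interferon state of microglia, the resident macrophages. In mice the family has many Oas1 paralogs, the longer Oas2 and Oas3 with repeated synthetase units, and Oasl1 and Oasl2, which carry ubiquitin-like domains at their ends.

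Of the 9 probes, 4 met the rule for keeping a probe, which asks that 1 genotype be well above background on at least 3 of 4 arrays, 1 each for Oasl2, Oas1a, Oasl1 and Oas1c. These probes passed through the APPswe/PS1dE9 channel, where all 4 were well above background on every array. Their log2 ratios of APPswe/PS1dE9 over WT were above 0 on 4 of 4 arrays in all 4 genes, as were those of 15.6% of kept probes. All 4 were past an adjusted p of 0.05 in a limma fit over all kept probes, a threshold that 6.89% of the 26898 kept probes passed as higher and 8.79% in either direction. Oasl2 and Oas1a were also over 2-fold higher, as were 0.87% of kept probes by both criteria. The median log2 ratio was 0.98 over the 4 probes and 0.01 over all kept probes. Nothing is read from these counts, since this contrast was in view when the genes were picked. The same holds where signals of the genotypes are said below not to overlap, for which no share over all probes is given.

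Oasl2, which in mice makes 2'-5'-linked adenylates and also has ubiquitin-like domains, had the highest values. Its processed signal, which Feature Extraction has background-subtracted and dye-normalized, was 495, 549, 757 and 1220.5 in the APPswe/PS1dE9 cultures of replicates 1 to 4, against 45.3, 53.3, 52.7 and 48.5 in the WT cultures. The lowest APPswe/PS1dE9 signal was far above the highest WT signal, the WT signals lay close together, and replicate 4 was the highest of the APPswe/PS1dE9 cultures. The log2 ratio after normexp background correction and loess was 2.78, 3.10, 2.78 and 3.53 on replicates 1 to 4, with a mean of 3.05 ± 0.36 (SD, n = 4 arrays), which is 8.27-fold. Oasl2 was the only member well above background in WT cultures on all 4 arrays, and its probe ranked 5 from the top among 26898 log2 ratios.

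Oas1a encodes an enzymatically active synthetase. Its probe A_55_P1998943 had processed signals of 47.1, 51.5, 106 and 129.8 in APPswe/PS1dE9 cultures, against 3.57, 6.87, 8.86 and 9.09 in WT cultures. The groups did not overlap, and the APPswe/PS1dE9 signals were higher on replicates 3 and 4, where this RNA was in Cy5, than on replicates 1 and 2. The WT signals were also higher on replicates 3 and 4, where the WT RNA was in Cy3. The log2 ratios were 1.00, 1.07, 1.15 and 1.40, with a mean of 1.15 ± 0.17 (SD, n = 4 arrays). No WT culture gave a signal well above background, so the size of the difference was uncertain. The per-channel means put APPswe/PS1dE9 2.22-fold higher, at 7.42 in APPswe/PS1dE9 cultures and 6.27 in WT cultures. These means are on the log2 scale after loess and Aquantile normalization, each over 2 cultures in Cy3 and 2 in Cy5. Raising WT values to the lowest signal well above background left the WT mean at 6.27. The 2.22 is therefore the ratio as measured and not a bound, since no detection limit entered it. Of the kept probes, 0.145% shared this pattern of being well above background in all 4 APPswe/PS1dE9 cultures and in no WT culture.

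The second Oas1a probe, A_55_P1998942, was much dimmer and was not kept. Its processed signals were 5.11, 11.8, 19.6 and 48.1 in APPswe/PS1dE9 cultures, against 6.15, 5.95, 7.75 and 8.04 in WT cultures. Only the APPswe/PS1dE9 culture of replicate 4 was well above background. The log2 ratios were -0.03, 0.23, 0.40 and 0.78, so the probe was near 0 on replicate 1 where the other Oas1a probe was at 1.00.

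Oasl1 encodes a protein without synthetase activity, which in mouse cells restrains translation of Irf7, the interferon regulatory factor that amplifies interferon production. Its processed signals were 52.4, 92.1, 66.1 and 70.1 in APPswe/PS1dE9 cultures, against 14.6, 17.5, 9.23 and 11.7 in WT cultures. The groups did not overlap, and the WT signal was well above background on replicate 1 alone. The log2 ratios of 0.75, 0.90, 0.72 and 0.89 gave a mean of 0.81 ± 0.09 (SD, n = 4 arrays).

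Oas1c is an Oas1 paralog reported to lack synthetase activity. Its processed signals were 48.9, 34.2, 47.1 and 68.1 in APPswe/PS1dE9 cultures, against 15.9, 7.26, 24.4 and 18.8 in WT cultures. The groups did not overlap, although replicate 3 had the highest WT signal and a small difference. The log2 ratios were 0.77, 0.65, 0.34 and 0.75, with a mean of 0.63 ± 0.20 (SD, n = 4 arrays), and WT was well above background on replicate 1 alone.

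**Figure D1:**
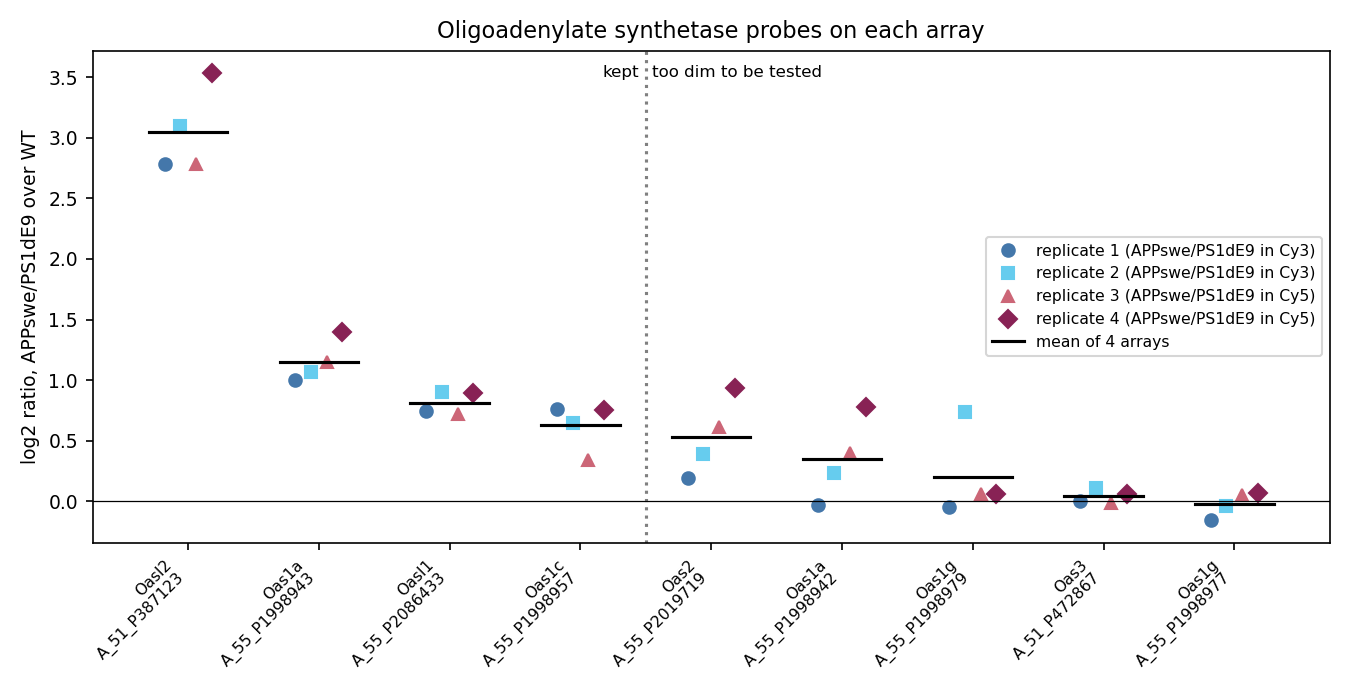
Log2 ratio of APPswe/PS1dE9 over WT (vertical axis) for each of the 9 oligoadenylate synthetase probes (horizontal axis), with 1 point per array and a line at the mean of the 4 arrays. The 4 kept probes lie left of the dotted line, with Oasl2 between 2.78 and 3.53, and the 5 dim probes lie right of it.

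The order of the mean ratios was Oasl2, Oas1a, Oasl1 and Oas1c. With the offset of 50, every Oasl2 ratio lay above every ratio of the other kept members, and the lowest Oas1a ratio, 1.00, above the highest Oasl1 ratio, 0.90. With the processed signals Oas1a was at 3.72 and Oasl2 at 3.45 on replicate 1, so this order did not hold on every array. Oasl1 and Oas1c overlapped with the offset of 50, at 0.72 to 0.90 and 0.34 to 0.77. The WT cultures were well above background on no array for Oas1a and on 1 array for Oasl1 and for Oas1c, so the gaps between these 3 genes depend on the treatment of background. The dye term of the fit, which was not in view when the genes were picked, was 0.11 for Oasl2, 0.12 for Oas1a, -0.01 for Oasl1 and -0.08 for Oas1c on the log2 scale, and it did not pass in any of them (limma adjusted p between 0.459 and 0.957). Over all kept probes limma called the dye term in 0%, while 3940 of 26898 had an unadjusted p under 0.05.

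Oas2 and Oas3 encode the longer synthetases. The Oas2 probe had processed signals of 17.2, 15.2, 51.3 and 62.9 in APPswe/PS1dE9 cultures, against 9.17, 6.00, 7.57 and 7.93 in WT cultures. The groups did not overlap, but APPswe/PS1dE9 was well above background on replicates 3 and 4 alone and WT on none, so the probe was not kept. Its log2 ratios were 0.20, 0.39, 0.62 and 0.93, all above 0, and the per-channel means put APPswe/PS1dE9 1.43-fold higher. This is not a bound, since APPswe/PS1dE9 was itself not well above background on replicates 1 and 2. The Oas3 probe was not well above background in any culture, at 5.86, 7.15, 6.69 and 5.15 in APPswe/PS1dE9 cultures, against 3.47, 6.89, 8.57 and 8.21 in WT cultures. No Oas3 signal was measured on these arrays, so no difference in Oas3 was detectable.

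Oas1g is a close paralog of Oas1a with an active enzyme, and it was read by a pair of probes. A_55_P1998977 was not well above background in any culture, with log2 ratios between -0.16 and 0.07. A_55_P1998979 had processed signals of 5.83, 82.2, 5.26 and 38.6 in APPswe/PS1dE9 cultures, against 8.59, 12.1, 6.33 and 29.2 in WT cultures. The groups overlapped, and the probe was well above background only in the APPswe/PS1dE9 cultures of replicates 2 and 4. Its log2 ratios were -0.04, 0.73, 0.06 and 0.06, so the mean of 0.20 rested on replicate 2 and was 0.03 without it.

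**Figure D2:**
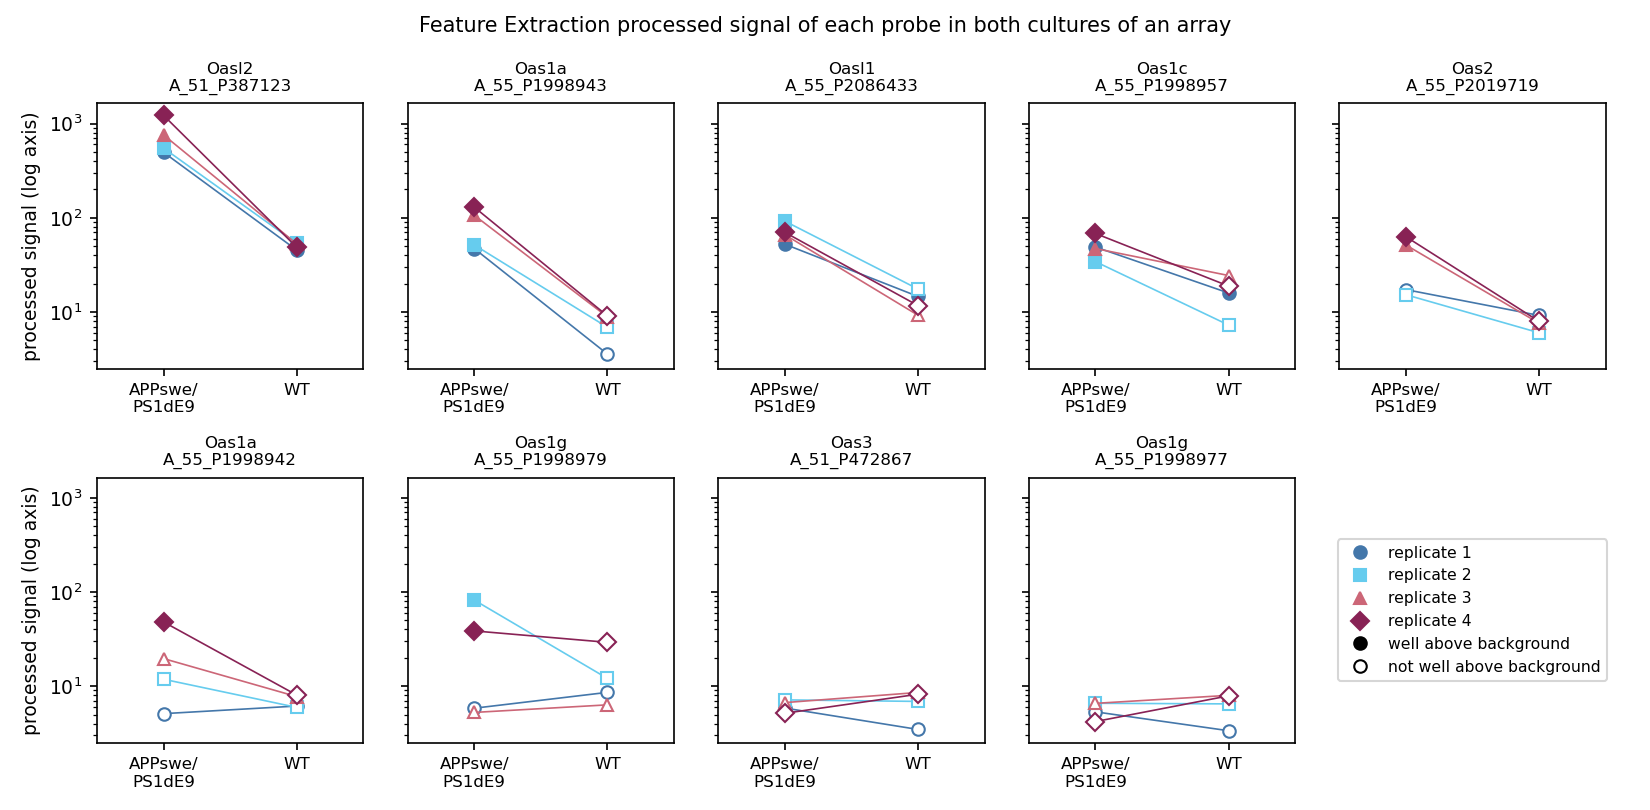
Feature Extraction processed signal on a log axis for each probe (panels) in the APPswe/PS1dE9 and WT cultures, with a line joining the cultures of 1 array. Filled points are well above background: Oasl2 is filled in both genotypes on all 4 arrays, and Oas3 in none.

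The size of the ratios depended on how background was treated. Among kept probes, the mean intensity of Oas1a, Oasl1 and Oas1c stood at percentiles between 3.38 and 5.01, and that of Oasl2 at percentile 48.3. The offset of 50 added in the normexp correction draws the ratios of dim spots towards 0. With the processed signals, which carry no offset, the mean log2 ratios were 3.83 for Oasl2, 3.51 for Oas1a, 2.42 for Oasl1 and 1.67 for Oas1c. The order of the 4 genes was the same, but Oas1a moved close to Oasl2. Oas2 was at 2.00 on this scale. Except for Oasl2, these larger values rest on WT signals that were mostly not well above background. The SD over the 4 arrays on this scale was 0.42 for Oas1a, 0.42 for Oasl1, 0.54 for Oas1c and 0.59 for Oasl2.

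**Figure D3:**
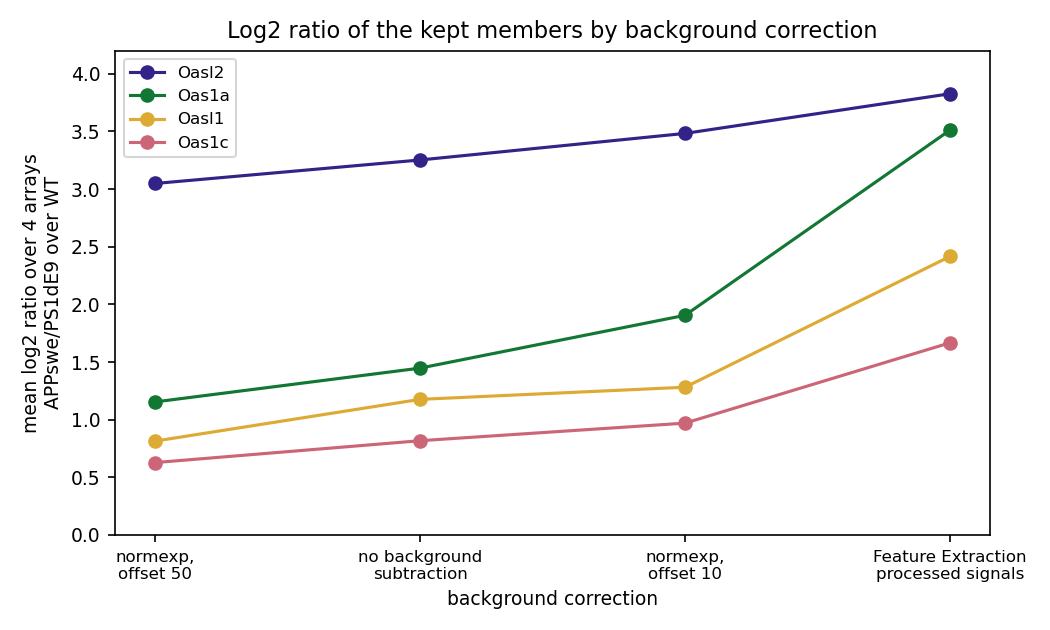
Mean log2 ratio of APPswe/PS1dE9 over WT across 4 arrays (vertical axis) for the 4 kept members under 4 treatments of the background (horizontal axis). Oasl2 runs from 3.05 to 3.83 and Oas1a from 1.15 to 3.51, in the same order of genes at each step.

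Promoter windows from RefSeq, of 250 bases before and 50 bases after an annotated transcript start in assembly GRCm38.p6, were at hand for 6 of the 8 genes. They are shown for the 4 kept genes because their ratios were above 0 together, with matches to the interferon-stimulated response element in capitals. The pattern searched was GAAA, any 2 bases and GAAA again, on both strands, where matches may overlap, and each window is written 5' to 3' on the gene's strand. The windows are chr5:114896684-114896983 on the plus strand for Oasl2, chr5:120907476-120907775 on the minus strand for Oas1a, chr5:114922990-114923289 on the plus strand for Oasl1 and chr5:120812465-120812764 on the minus strand for Oas1c.
Oasl2: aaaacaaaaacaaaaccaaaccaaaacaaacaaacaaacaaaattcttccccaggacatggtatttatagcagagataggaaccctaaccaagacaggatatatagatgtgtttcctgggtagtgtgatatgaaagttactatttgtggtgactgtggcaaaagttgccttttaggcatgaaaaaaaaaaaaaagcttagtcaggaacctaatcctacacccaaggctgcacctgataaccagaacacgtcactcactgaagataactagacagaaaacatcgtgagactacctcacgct
Oas1a: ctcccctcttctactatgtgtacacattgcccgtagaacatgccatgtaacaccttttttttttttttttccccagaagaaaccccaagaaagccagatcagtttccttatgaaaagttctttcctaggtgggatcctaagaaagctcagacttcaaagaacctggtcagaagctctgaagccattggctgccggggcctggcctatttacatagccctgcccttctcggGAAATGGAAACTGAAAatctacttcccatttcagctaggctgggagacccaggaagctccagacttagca
Oasl1: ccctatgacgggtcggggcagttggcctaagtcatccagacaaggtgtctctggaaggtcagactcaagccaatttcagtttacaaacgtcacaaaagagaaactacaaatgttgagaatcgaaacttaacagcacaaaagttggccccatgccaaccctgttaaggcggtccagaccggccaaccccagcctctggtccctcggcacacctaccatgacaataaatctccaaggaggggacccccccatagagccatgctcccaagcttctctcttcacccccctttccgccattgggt
Oas1c: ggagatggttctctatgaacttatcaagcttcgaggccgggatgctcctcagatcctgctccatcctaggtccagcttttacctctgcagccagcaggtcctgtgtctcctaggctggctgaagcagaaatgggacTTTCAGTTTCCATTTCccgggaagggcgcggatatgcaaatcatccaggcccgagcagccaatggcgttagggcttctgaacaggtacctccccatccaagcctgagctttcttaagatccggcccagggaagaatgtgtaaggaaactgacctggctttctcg

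Oas1a held a pair of overlapping matches whose first bases lay 20 and 14 bases before the start. Oas1c held a pair on the opposite strand at 114 and 108 bases before the start. The windows of Oasl2 and Oasl1 held no exact match, which says only that these letters are not in these windows. The 2 other members with a window, Oas1g and Oas3, held matches although their probes were dim. Their sites, with the match in capitals, lie at chr5:120887612-120887635 and chr5:120777721-120777738, both on the minus strand.
Oas1g: tcggGAAATGGAAACTGAAAatct
Oas3: aggaGAAAACGAAAgtga
In all, 4 of 6 member windows held an exact match, against 3.44% of 32841 windows in the table. With 1 mismatch allowed, 6 of 6 did, against 35.4% of windows. The gamma-activated sequence TTCNNNGAA, its own reverse complement, was found in the Oas1a window alone, against 8.3% of windows, and the TATA box letters TATAAA, on either strand, in the Oasl2 window alone, against 13.6%. Oas1a and Oas1g windows were identical at 261 of 294 aligned bases, 88.8%, and their sites shown here have the same letters from end to end. Oasl2, the member of highest ratio, had no exact match, and Oas3, whose probe was not above background, had one. A match is a description of the letters and was not tested for binding.

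**Figure D4:**
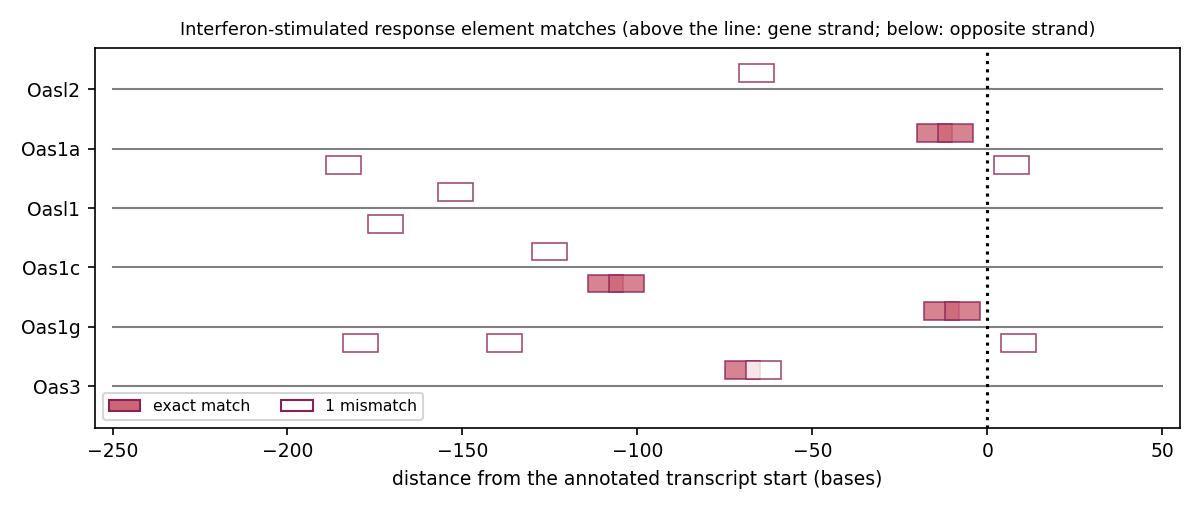
Positions of interferon-stimulated response element matches (filled boxes, exact; open boxes, 1 mismatch; below the line, opposite strand) in 6 promoter windows, by distance in bases from the annotated transcript start. Oas1a and Oas1g carry a pair of exact matches just before the start, Oas1c a pair further away on the opposite strand, Oas3 carries 1, and Oasl2 and Oasl1 carry no exact match.

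The genes lie in 2 clusters on chromosome 5, with Oasl2 next to Oasl1 and the others between Oas2 and Oas1d. The adjacent Oasl2 and Oasl1 were at 3.05 and 0.81, while Oas1c and Oas1f, separated by Oas1b alone, were at 0.63 and 0.65. The 3 genes on each side of both clusters, 12 in all, were added with their values known. Of these, 8 were kept, 2 were higher and none was lower, against 6.89% higher and 1.9% lower among all kept probes. In the fit with 1 probe a gene, 1928 of 13634 genes were higher and 684 lower. Nothing is read from so small a count. Rasal1, which encodes a Ras GTPase-activating protein, was at 0.65 (limma adjusted p = 0.00446), and the synaptic vesicle gene Rph3a was at 0.47 (limma adjusted p = 0.0239). Dtx1, which lies between Rasal1 and Oas2, was at -0.02 (limma adjusted p = 0.865).

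Genes around the family were read from a list of 41 in the order of the pathway. The list was chosen with earlier results of these data known. Of 31 kept, 15 were higher in APPswe/PS1dE9 cultures and 16 did not pass, and their median log2 ratio was 0.31. Among all kept probes, a unit unlike this list of genes, 6.89% were higher and 1.9% lower. In the fit with 1 probe a gene throughout, 17 of the list were higher, against 1928 higher and 684 lower among 13634 genes. The higher count was 8 without replicate 3, 4 without replicate 4, and 9 with the processed signals. The values below are log2 ratios of APPswe/PS1dE9 over WT with the SE of the fit (n = 4 arrays), which covers the spread between arrays of the same dye orientation.

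Abce1, whose product recycles ribosomes, was at -0.09 ± 0.06 (limma adjusted p = 0.42), and Pde12, whose phosphodiesterase degrades 2'-5' adenylates, was at -0.18 ± 0.07 (limma adjusted p = 0.176), neither past the threshold.

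The probes of the remaining Oas1 paralogs differed among themselves. No probe sequences were at hand, so whether any Oas1 probe, those of the members included, also reads another paralog could not be examined. Oas1f was higher, at 0.56, 0.60, 0.72 and 0.72 on replicates 1 to 4 and 0.65 ± 0.06 in the fit (limma adjusted p = 0.00236). Its signal stood well above background on 3 arrays in APPswe/PS1dE9 cultures and on none in WT cultures, so the size of the difference was uncertain. The per-channel means put APPswe/PS1dE9 1.57-fold higher. This is not a bound, since APPswe/PS1dE9 was itself not well above background on replicate 2. Its log2 ratio was 1.09 with an offset of 10 and 2.62 with the processed signals. It did not pass without replicate 4 (limma adjusted p = 0.0533). Oas1d, an oocyte-expressed paralog without synthetase activity, had log2 ratios of -0.38, -0.45, 0.31 and 0.26 on replicates 1 to 4. Its ratio turned with the dye, so that the Cy5 channel was the brighter on every array, and the genotype value of -0.06 ± 0.06 did not pass (limma adjusted p = 0.579). Oas1e and Oas1h were not well above background in any culture.

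Of the 8 sensors and effectors of double-stranded RNA, 3 were higher and 5 did not pass. Ddx58, which encodes the sensor RIG-I, was at 1.05 ± 0.07 (limma adjusted p = 0.000627), while its other probe, at 0.65, missed the threshold (limma adjusted p = 0.0597). Ifih1, which encodes the sensor MDA5, was at 1.00 ± 0.11 (limma adjusted p = 0.00395). Eif2ak2, whose kinase PKR halts translation when bound to double-stranded RNA, was at 0.68 ± 0.07 (limma adjusted p = 0.00405). Without replicate 4, Ifih1 and Eif2ak2 did not pass (limma adjusted p = 0.0584 and 0.0773), and Eif2ak2 did not without replicate 3 either (limma adjusted p = 0.063).

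Among ligands and receptors, 3 of 6 kept genes were higher and none was lower. The ligand gene Ifnb1 was not well above background in any culture. Ifngr1, for the interferon gamma receptor, was at 0.66 ± 0.08 (limma adjusted p = 0.00792). Of the type I receptor chains, Ifnar2 was at 0.34 ± 0.07 (limma adjusted p = 0.0394) and Ifnar1 at -0.01 ± 0.07 (limma adjusted p = 0.952).

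In signal transduction, 5 of 9 kept genes were higher and none was lower. Irf1, an interferon-induced transcription factor, was at 1.25 ± 0.10 (limma adjusted p = 0.00148), and Irf8, a factor of myeloid cells, at 0.94 ± 0.07 (limma adjusted p = 0.00116). Irf9, the DNA-binding subunit of the interferon complex, was at 0.60 ± 0.06 (limma adjusted p = 0.00324), and did not pass without replicate 3 or 4 (limma adjusted p = 0.0522 and 0.0606). Stat2, another subunit, was at 0.46 ± 0.08 (limma adjusted p = 0.0172). The probe of Irf7, the gene that Oasl1 is known to restrain, was well above background in APPswe/PS1dE9 cultures on 2 of 4 arrays and in no WT culture, with log2 ratios of 0.35, 0.35, 0.11 and 0.67, and was not kept.

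Of 4 genes that restrain or modify the response, 3 were higher. The ubiquitin-like modifier Isg15 was at 2.29 ± 0.09 (limma adjusted p = 0.000183), with a second probe at 1.06. Usp18, which removes Isg15 from proteins and limits receptor signalling, was at 1.44 ± 0.16 (limma adjusted p = 0.00424).

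**Figure D5:**
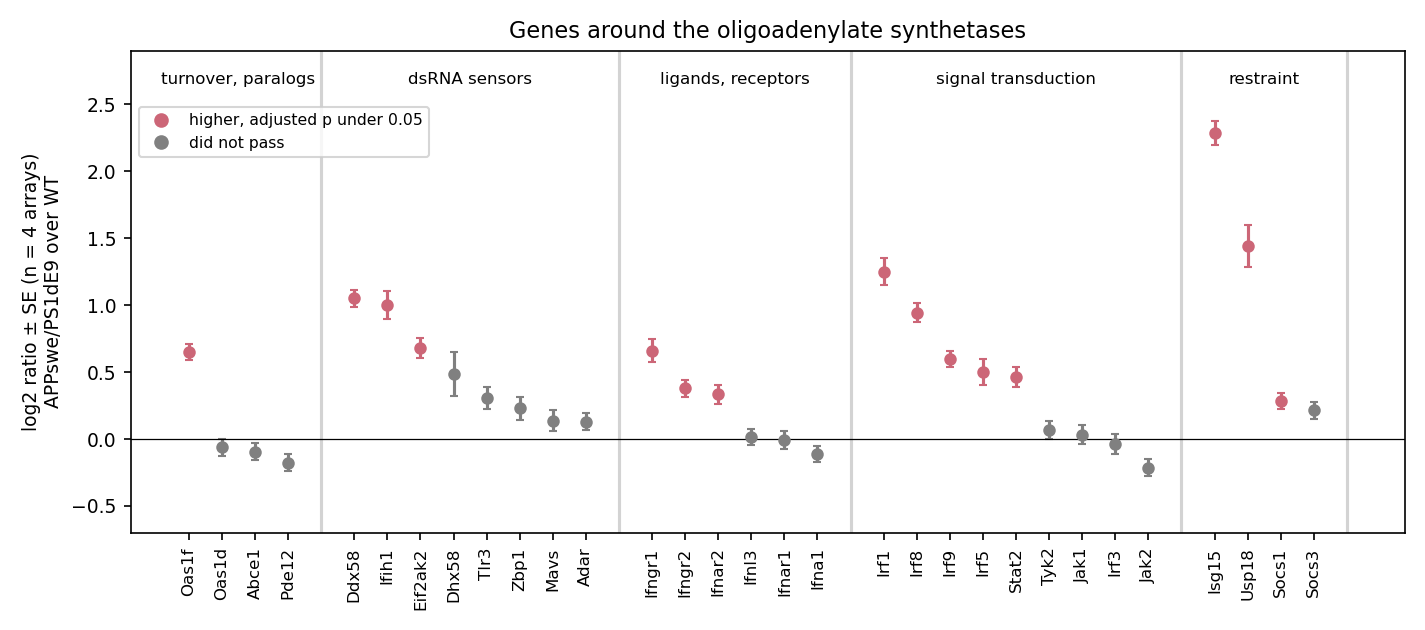
Fitted log2 ratio of APPswe/PS1dE9 over WT with its SE (n = 4 arrays) for the 31 kept genes around the family, grouped by role. Of these, 15 lie above 0 and passed, with Isg15 highest at 2.29, and 16 did not pass.

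The genes whose ratios were most like those of Oasl2 over the 4 arrays, by the root mean square difference of log2 ratios among 13630 named genes, were Rtp4 (0.177), Lyz1 (0.46), Cd52 (0.566), Gbp3 (0.605) and Ctss (0.619). Rtp4, an interferon-induced gene, was at 2.89, 3.39, 2.83 and 3.38 on replicates 1 to 4, so it was below Oasl2 on replicate 4 and above it on the other 3. Against the median of the 4 kept members, the nearest were Ddo (0.0543), Vim (0.0618), Tgfbr2 (0.0621), Dnaaf3 (0.067) and Trf (0.0816). This measure finds genes of like size and was computed over 4 arrays only.

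Markers of the cells that the cultures could hold were set beside these results. In bulk RNA, fewer cells of a type and less RNA per cell cannot be told apart. Of 16 microglia markers, 14 were kept, 13 were higher and none was lower, with a median log2 ratio of 1.83. Their summed processed signal ran from 7143 to 17184 in APPswe/PS1dE9 cultures and from 5157 to 8225 in WT cultures. The ranges overlapped, and the sum was higher in the APPswe/PS1dE9 culture on 4 of 4 arrays. Without Itgam, left out after the data were seen because it alone held 3607 to 9609 in APPswe/PS1dE9 cultures and 4018 to 6203 in WT cultures, the sums did not overlap. They ran from 3536 to 7576 in APPswe/PS1dE9 cultures and from 1139 to 2022 in WT cultures. Aif1, which encodes the microglial protein Iba1, was at 2.22 ± 0.07 (limma adjusted p = 0.000129), while P2ry12 and Laptm5 were not well above background in any WT culture. In APPswe/PS1dE9 cultures Laptm5 was well above background on 4 arrays, but P2ry12 on 1 alone, and P2ry12 was not kept. Of 8 astrocyte markers, 4 were higher, Gfap among them at 0.69 ± 0.06 (limma adjusted p = 0.00248), and 4 did not pass. Their summed signal ran from 70394 to 142526 in APPswe/PS1dE9 cultures and from 53413 to 102446 in WT cultures. The part of either cell type in the oligoadenylate synthetase ratios was not tested.

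Of 8 neuron markers 1 was higher, 1 was lower and 6 did not pass, Tubb3 among these at -0.13. Of 6 oligodendrocyte markers, limma called 0 (adjusted p between 0.451 and 0.985), with Mbp at 0.09. All neuron, astrocyte, oligodendrocyte and progenitor markers were well above background in every culture. Of 6 progenitor markers 1 was higher, 1 was lower and 4 did not pass, with Nes at 0.55 (limma adjusted p = 0.0521) and Mki67 at 0.05 among the last. Endothelial (Pecam1, Cdh5, Cldn5, Kdr) and T cell (Cd3e, Cd3g, Cd4, Cd8a) markers gave no call among the 2 kept of 4 in each list. The probe for the mouse gene App was at 0.12 ± 0.06 (limma adjusted p = 0.296), and Prnp was at 0.75 ± 0.20 (limma adjusted p = 0.0717). Neither passed, and whether the App probe reads the transgene is not known from the files.

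Between 46.2% and 58.5% of probes were well above background in a culture, and no spot was saturated. Spearman correlations of the ratios across kept probes were 0.54 and 0.46 between arrays of the same dye orientation and 0.10 to 0.25 between arrays of different orientation, over probes that share an array and are not independent. Both cultures of replicate 2 and both of replicate 4 had Xist, and neither had the Y-linked Eif2s3y, well above background. On those 2 arrays the mean log2 ratios were 3.31 for Oasl2, 1.23 for Oas1a, 0.89 for Oasl1 and 0.70 for Oas1c. Without any 1 replicate the means stayed between 2.89 and 3.14 for Oasl2, 1.07 and 1.20 for Oas1a, 0.79 and 0.85 for Oasl1 and 0.58 and 0.72 for Oas1c.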

How the data were processed

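RNA of 4 APPswe/PS1dE9 and 4 WT cultures was measured on 4 two-colour arrays with exchanged dyes. Per the labels, amplification and labelling started from 100 ng of RNA. Per the file headers, the 4 arrays share 1 slide and 1 scan, Feature Extraction 11.0.1.1 read the spots, and the annotation uses mm9. The authors deposited median intensity values of spot and local background, not normalized, and processed intensity values, background-subtracted and dye-normalized, with a log10 ratio, Cy5 over Cy3. The value table deposited with them, of 29350 spots, proved to hold log2 ratios of the processed signals, APPswe/PS1dE9 over WT, not centred (slopes of -1, -1, 1 and 1 on log2 Cy5/Cy3, column medians of -0.0797, -0.155, -0.0373 and -0.0378). Well above background is the flag set by Feature Extraction.

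Median intensities were corrected by normexp with an offset of 50 and normalized by loess within each array in limma 3.58.1 (R 4.3.3), without control spots and outlier spots. Repeated spots were averaged by probe. Probes were kept if 1 genotype's channel was well above background on 3 or more arrays, which left 26898 of 55681. The lmFit and eBayes model held genotype and a dye intercept (degrees of freedom: 2 residual, 4.16 prior), and p-values were adjusted by Benjamini-Hochberg over all kept probes. A gene was read by its kept probe of highest mean intensity. The design named the probe as the unit, where 1 probe a gene was an alternative. A RefSeq table of GRCm38.p6 named 27509 probes with 20887 symbols by their accessions and was used for names, gene order and promoter windows, whose coordinates are of that build. No probe matched Oas1i, Ifnl2 or Cd68 in it. Named genes were the members, Abce1, Pde12, the 8 pathway genes of smallest p, the nearest genes by ratio, App, Prnp and 6 markers; others serve as examples chosen after their values were seen. Of the pathway list, 2 genes are not reported here. The members and lists were chosen with earlier results of these data known. The folds of per-channel means for Oas1a, Oas2 and Oas1f set the APPswe/PS1dE9 mean against the WT mean. A WT value below the lowest WT signal well above background on its array was first raised to that signal. The fit was tested on simulated data. The number of arrays limits the precision.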

Additional observations from a re-analysis of the deposited data

Results flagged for a closer look

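Of 40 sets of 4 ratios, for the 9 member probes and the 31 kept pathway genes, 3 had 1 array whose ratio lay far from the other 3 by Dixon's criterion, which chance alone meets in about 1 of 20 sets of 4. The Oas1g probe A_55_P1998979 was at 0.73 on replicate 2 and between -0.04 and 0.06 on the others. Dhx58, which encodes a regulator of RNA sensing, was at 1.37 on replicate 2 and between 0.11 and 0.29 on the others, and did not pass (0.49 ± 0.17, limma adjusted p = 0.14). Ifngr2, a chain of the interferon gamma receptor, was at 0.27 on replicate 3 and between 0.40 and 0.43 on the others.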

How the results depend on the processing

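Under 15 alternatives, of which 4 leave out 1 replicate each and 1 uses replicates 2 and 4 alone, none of the called genes recomputed changed sign, namely the 4 kept members and the 8 pathway genes of smallest p. Where a filter removed a gene, it had 14 alternatives. Other called genes were not recomputed. The 4 kept members all passed, except under these alternatives: 3 on replicates 2 and 4 alone, between 3 and 4 without 1 replicate, 1 where probes had to be well above background in both channels on all arrays, since only Oasl2 was then tested, and 5 with no filter on dim probes, when 9 were tested. Calls over all probes, 1852 higher and 512 lower, were 759 and 226 with the processed signals, 764 and 232 with the deposited value table, 1050 and 98 with no filter, and 458 and 7 on replicates 2 and 4 alone. Lower calls were 300 with no background subtraction, 301 without the dye intercept and 1675 under median centring without loess, where 1559 were higher. The higher share of calls was then 48.2%, against 78.3%. Without 1 replicate, higher calls ranged from 363 to 2835 and lower calls from 5 to 721. Higher calls in the pathway list, 15, were 9 with the processed signals and with the deposited value table, 7 on replicates 2 and 4 alone, and 4 to 15 without 1 replicate. Under median centring, 1 gene of the list was lower. The fit is itself paired, since each ratio sets the APPswe/PS1dE9 culture of an array against the WT culture of the same array. The cause of these moves was not tested.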
